A study of Homo sapiens with 6 samples.

Results

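The retinoid genes described here were the 9 rows, of 21293 gene rows in the normalized count table, that carried the symbols STRA6, CRABP2, RDH10, DHRS3, ALDH1A3, RARA, RARB, RARG or RXRA. They were measured by RNA-seq in H2087-LCC cells, a latency competent population derived from the human lung adenocarcinoma (LUAD) cell line H2087 that stays dormant after it disseminates. The 6 libraries fell into 3 groups of 2. One group was incubated for 3 days with SB505124 (SB), a kinase inhibitor of the TGFβ type I receptor, and the others were incubated with TGFβ for 3 days or for 7 days. All 3 groups were this single line in culture, with no untreated group. SB was sampled at 3 days alone. Differences of 7 days of TGFβ, from SB or from 3 days of TGFβ, therefore cannot be told apart from time in culture. The study describes the 2 libraries of a group as technical replicates where it plots their read counts, and the labels do not say whether they came from separate cultures. SDs, standard errors and p-values measure only the spread between these libraries, which may or may not hold variation between cultures. The genes were chosen because of how they behaved in these same libraries, DHRS3 in particular because its values in the SB libraries differed. Their levels and differences are therefore given as a description, without p-values.

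Retinol enters cells through the membrane receptor STRA6 and is oxidized in 2 steps, first to retinal by retinol dehydrogenases such as RDH10 and then to all-trans retinoic acid by retinaldehyde dehydrogenases such as ALDH1A3. DHRS3 works against the first step by reducing retinal back to retinol, and CYP26 enzymes degrade retinoic acid. CRABP2 carries retinoic acid to the nucleus, where retinoic acid receptors (RARA, RARB and RARG) paired with retinoid X receptors such as RXRA bind direct repeats of a short half-site in DNA. STRA6, DHRS3, CRABP2, RARB and CYP26A1 are textbook targets that retinoic acid itself induces, and retinoic acid signaling is known for its part in forming and maintaining the alveoli of the lung.

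Normalized counts came to a total of 34306283 to 36340734 per library. The value of 1 read could be resolved from the steps between low values in 3 libraries, where it lay between 0.896 and 1.10 normalized counts, and the depth of the other 3 is unknown. All 6 epithelial and lung markers were present, and their summed level lay between 77904 and 109132 normalized counts. CDH1, which encodes E-cadherin, was at 371 and 635 in the SB libraries, 28 and 24 after 3 days of TGFβ and 10 and 9 after 7 days. NKX2-1, the lung lineage factor, was at 2784 and 2908, then 712 and 748, then 853 and 857. EPCAM was at 10180 and 9106, then 6610 and 5994, then 2988 and 3277, and KRT18 at 47266 and 50793, then 38965 and 41257, then 34714 and 31757. KRT8 (33960 and 39833, then 33341 and 39167, then 42692 and 36786) and KRT19 (4333 and 5857, then 3785 and 5076, then 6809 and 5218) overlapped SB at both times. The 7 markers of leukocytes and endothelium had a summed level of 93 and 148 with SB, 73 and 83 at 3 days and 70 and 64 at 7 days. Of these, PTPRC was at 4 or less and CD3E at 1 or less in every library, whereas the B cell gene CD79A was at 26 and 73 in the SB libraries and at 5 or less in the others. PECAM1 went the other way, at 41 and 36 with SB, 61 and 67 at 3 days and 56 and 53 at 7 days. LYZ was at 5 or less in every library. CDH5 was at 14 and 20 with SB and at 5 or less in the others, and VWF at 7 and 13 with SB and at 6 or less in the others. In bulk samples such as these, fewer cells that express a gene and less RNA of it per cell cannot be told apart.

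Of the 9 genes, 8 averaged 10 or more normalized counts over the 6 libraries and entered the limma fit on log2(normalized count + 1). RARB did not. After 3 days of TGFβ, 4 of the 8 were past the threshold of 0.05 against SB (STRA6 higher, DHRS3, CRABP2 and ALDH1A3 lower), where 29.0% of the 14395 genes tested were. After 7 days, 5 of the 8 were past it against SB (STRA6, RXRA and RDH10 higher, CRABP2 and ALDH1A3 lower), where 54.5% of all genes tested were. Between 7 days and 3 days of TGFβ, 4 of the 8 were past it, all higher at 7 days (STRA6, CRABP2, DHRS3 and RARG), where 33.2% of all genes tested were past it and 17.0% were past it and higher. The libraries of the groups compared did not overlap for 6 of the 8 at 3 days against SB (63.2% of all genes tested), for 6 at 7 days against SB (77.5%) and for 7 at 7 days against 3 days (69.1%). Against SB at 7 days, the call of CRABP2 was lost without SB replicate 2, where DHRS3 came to be called higher, and that of RDH10 without TGFβ 7 d replicate 2. Between 7 and 3 days, the call of RARG was lost without TGFβ 3 d replicate 1 or TGFβ 7 d replicate 1, and RXRA came to be called without TGFβ 3 d replicate 2. Without the filter on low values CRABP2 lost its calls at 7 days against SB and against 3 days, as RARG did against 3 days. Nothing is read from these counts, since the genes were chosen with the contrasts in view. The median of the 8 log2 differences was -0.05, 0.34 and 0.33 in the 3 comparisons, beside -0.02, -0.00081 and 0.02 over all genes tested.

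**Figure D1:**
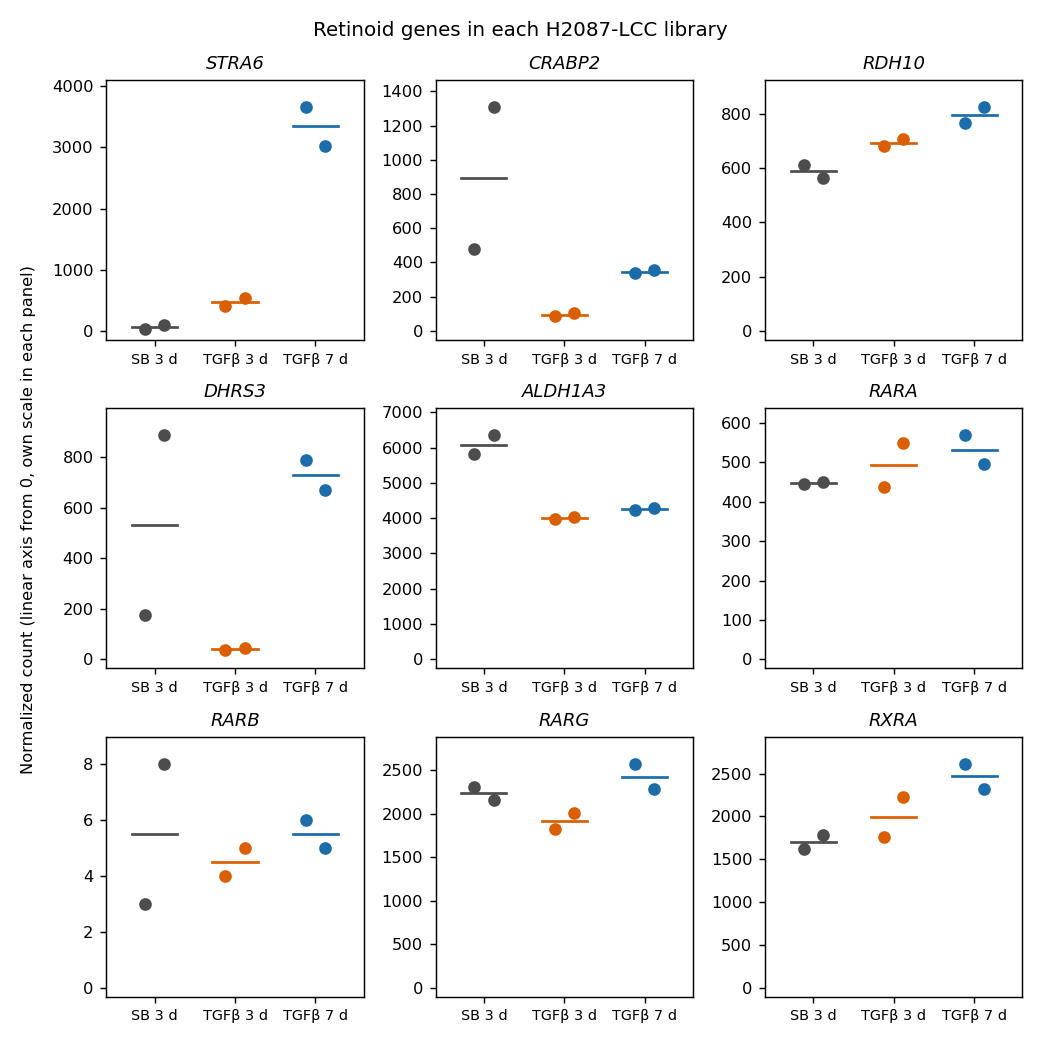
Normalized counts of the 9 retinoid genes (y axis, linear from 0, own scale in each panel) in the 2 libraries of each group (points), with the group mean as a line. STRA6 climbed from 37 and 95 in SB to 3667 and 3031 after 7 days of TGFβ, while DHRS3 lay at 39 and 44 after 3 days and between 175 and 888 in all other libraries.

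STRA6, the cell surface receptor for retinol bound to its plasma carrier, had the widest span of levels among the 9 genes. It lies on chromosome 15 (GRCh37, chr15:74471807-74504608, minus strand), and 6.77% of its exonic bases overlap CCDC33 on the opposite strand. Reads of overlapping genes on opposite strands could not be told apart, because the library kit does not mark strand. The normalized count of STRA6 was 37 and 95 with SB, 414 and 543 after 3 days of TGFβ and 3667 and 3031 after 7 days. Every library of a later step lay above every library of the step before it. The level after 3 days was 7.87 times that of SB, a log2 difference of 2.98 ± 0.32 (SE, n = 2 libraries a group). The level after 7 days was 55.2 times that of SB (log2 difference 5.79 ± 0.32) and 7.02 times that at 3 days (2.81 ± 0.32). The SB libraries themselves differed by 2.53-fold, and the log2 difference at 3 days was 2.31 against SB replicate 2 alone and 3.64 against SB replicate 1 alone. At 7 days it was 5.12 and 6.46 against the same libraries.

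CRABP2, the binding protein that hands retinoic acid to its nuclear receptors, was lower with TGFβ than with SB. It lies on chromosome 1 (GRCh37, chr1:156669398-156675608, minus strand), with no other annotated exon over its own. Its normalized count was 478 and 1311 with SB, 85 and 103 after 3 days of TGFβ and 336 and 354 after 7 days. The libraries of the 3 groups did not overlap: SB was highest, 3 days of TGFβ lowest and 7 days between them. CRABP2 was 8.38 times lower at 3 days than with SB (log2 difference -3.07 ± 0.34, SE, n = 2 libraries a group), with differences of -3.79 against SB replicate 2 alone and -2.34 against SB replicate 1 alone. At 7 days it was 3.66 times higher than at 3 days (1.87 ± 0.34). The difference between 7 days and SB was -1.20 ± 0.34 and ranged from -0.47 without SB replicate 2 to -1.92 without SB replicate 1.

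RDH10, the enzyme that catalyses the rate-limiting oxidation of retinol to retinal, changed by less. It lies on chromosome 8 (GRCh37), and 5.21% of its exonic bases overlap an antisense gene, RDH10-AS1. Its normalized count was 610 and 565 with SB, 680 and 705 after 3 days of TGFβ and 765 and 826 after 7 days. The 3 groups did not overlap and stood in the order of SB, 3 days and 7 days. The log2 difference from SB was 0.24 ± 0.11 at 3 days and 0.44 ± 0.11 at 7 days.

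DHRS3, the reductase that returns retinal to retinol and so limits the supply for retinoic acid, was the gene whose SB libraries disagreed. It lies on chromosome 1 (GRCh37, chr1:12627939-12678216, minus strand), with no other annotated exon over its own. Its normalized count was 175 and 888 with SB, 39 and 44 after 3 days of TGFβ and 789 and 671 after 7 days. Both libraries at 3 days lay below all others, and both libraries at 7 days lay between the 2 SB libraries. The log2 difference between 3 days and SB was -3.22 ± 0.51 (SE, n = 2 libraries a group), or -2.05 against SB replicate 1 alone and -4.39 against SB replicate 2 alone. Between 7 days and SB the difference was 0.88 ± 0.51, and its direction rested on a single SB library: it was 2.05 against SB replicate 1 and -0.29 against SB replicate 2. The difference between 7 days and 3 days came to 17.2-fold (log2 difference 4.10 ± 0.51). Its means hold no SB library, but its standard error is pooled over all 6 libraries and so takes in the SB gap.

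ALDH1A3, which makes retinoic acid from retinal, had the highest normalized counts of the 9 genes in every library. It lies on chromosome 15 (GRCh37, chr15:101417919-101456831, plus strand), and 33.3% of its exonic bases overlap 2 other genes, ALDH1A3-AS1 on the opposite strand and an unnamed gene on the same strand. Its normalized count was 5818 and 6354 with SB, 3980 and 4039 after 3 days of TGFβ and 4221 and 4300 after 7 days. It was lower in all 4 TGFβ libraries than in either SB library, with log2 differences of -0.60 ± 0.08 at 3 days and -0.51 ± 0.08 at 7 days. The 2 TGFβ groups were close to each other, with a difference of 0.09 ± 0.08.

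The receptors stayed within a narrower range. RARA (GRCh37, chr17:38465432-38513895, plus strand), for which 21.4% of exonic bases overlap genes on the opposite strand, was at 446 and 449 with SB, 437 and 549 after 3 days of TGFβ and 569 and 495 after 7 days. The 3-day libraries lay on either side of the SB libraries, and the log2 difference at 7 days was 0.25 ± 0.14 (SE, n = 2 libraries a group). RARG (chr12:53604351-53626764, minus strand), the main RAR of epithelia such as skin, was at 2307 and 2160 with SB, 1822 and 2014 after 3 days and 2576 and 2279 after 7 days. Its 7-day libraries overlapped those of SB and lay above those of 3 days, by 0.34 ± 0.10 on the log2 scale. RXRA (chr9:137208944-137332431, plus strand), the shared partner of the RARs, was at 1619 and 1788 with SB, 1757 and 2221 after 3 days and 2616 and 2324 after 7 days. Both of its 7-day libraries lay above all others, with a log2 difference from SB of 0.54 ± 0.12. Where the directions of RARA and RXRA at 3 days are concerned, the differences from SB were 0.13 ± 0.14 and 0.22 ± 0.12, and that of RARA turned to -0.03 without TGFβ 3 d replicate 2.

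RARB (GRCh37, chr3:24729378-25639423, plus strand), the RAR gene that retinoic acid induces in many cell types, was near 0 throughout. Its normalized count was 3 and 8 with SB, 4 and 5 after 3 days of TGFβ and 6 and 5 after 7 days. The groups overlapped in all 3 comparisons, and no difference was detectable at this depth.

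**Figure D2:**
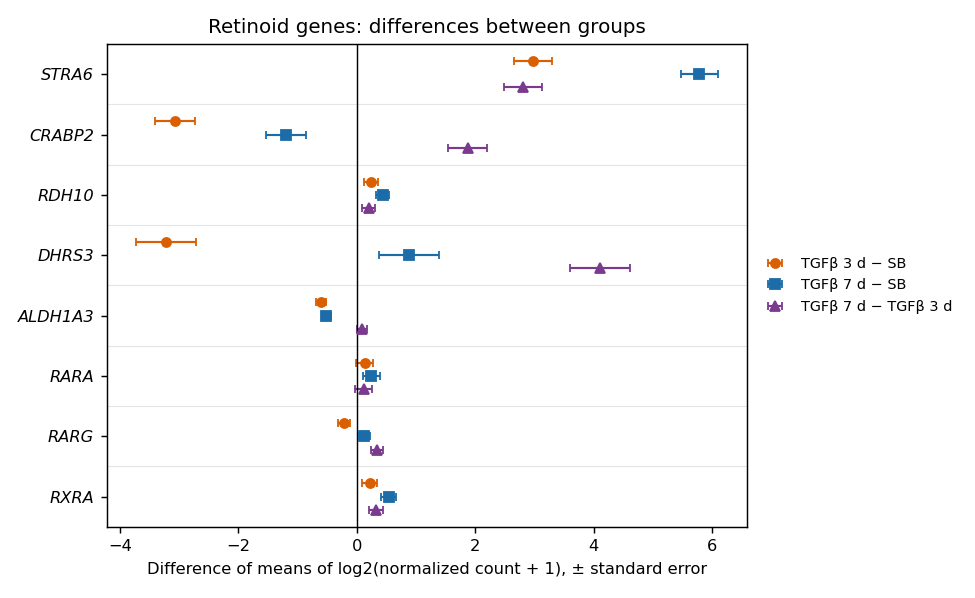
Differences between group means of log2(normalized count + 1) for the 8 retinoid genes tested (x axis), with bars for the standard error of the fit over 6 libraries; circles are TGFβ 3 d against SB, squares TGFβ 7 d against SB and triangles TGFβ 7 d against TGFβ 3 d. STRA6, CRABP2 and DHRS3 had differences of up to 5.79, and the other 5 genes stayed between -0.60 and 0.54.

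Per kilobase of merged exons, the order of the levels changed mostly through STRA6, CRABP2 and DHRS3. With SB, the mean of ALDH1A3 was first at 1141 ± 71.0 normalized counts per kilobase (SD, n = 2), followed by CRABP2 at 827 ± 544 and RARG at 436 ± 20.3. The spread of CRABP2 covered both ALDH1A3 and RARG, so its place among them is not settled. DHRS3 at 151 ± 143, RXRA at 141 ± 9.90, RDH10 at 110 ± 5.97 and RARA at 94.4 ± 0.447 came next, and the spread of DHRS3 covered its neighbours in that order. STRA6 at 8.61 ± 5.35 and RARB at 0.582 ± 0.374 were last. After 3 days of TGFβ, CRABP2 at 86.9 ± 11.8, STRA6 at 62.4 ± 11.9 and DHRS3 at 11.8 ± 1.01 stood below RARA at 104 ± 16.7. CRABP2 and RARA differed there by less than the sum of their SDs. After 7 days, STRA6 had come up to 437 ± 58.6 and did not differ from RARG at 474 ± 41.0 beyond their spread. DHRS3 at 208 ± 23.7 and RXRA at 205 ± 17.1 were likewise level, and ALDH1A3 was still first at 799 ± 10.5.

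Letters of the response element were then looked up at the starts of these genes, since retinoic acid receptors act through them. RefSeq windows from 250 bases before to 50 bases after each transcript start (GRCh38.p14) were given for 8 of the 9 genes, 20 windows in all, and were placed on GRCh37 by exact match. The half-sites searched, on both strands, were the consensus AGGTCA and its variants that start with GG (GGGTCA), hold TT in the middle (AGTTCA) or do both (GGTTCA). A pair of them in the same orientation with 5 bases of any kind between is called DR5, and with 1 or 2 bases DR1 or DR2, so that each direct repeat also counts as half-sites. Among 35116 windows of all genes, 38.6% held a half-site, 0.0883% a DR5, 0.131% a DR1 and 0.0399% a DR2. A half-site was found in 10 of the 20 windows, which belong to 6 of the 9 genes, a DR5 in 1 (RARB) and neither a DR1 nor a DR2 in any. The stretches below show the RARB repeat, that of CYP26A1 for comparison, and some of the half-sites near the starts of the 3 genes with the widest span. Left out are AGGTCA on the opposite strand at -22 to -17 from the same STRA6 start and AGGTCA at -124 to -119 from another. Also left out is AGGTCA on the opposite strand at -171 to -166 from another DHRS3 start. Matches are in capitals, read 5′ to 3′ on the strand of the gene, and are a match of letters only.
RARB, chr3:25469695-25469723, plus strand, 53 to 37 bases before a start, inside an annotated RARB exon: gggtagGGTTCACCGAAAGTTCActcgca
CYP26A1, chr10:94833554-94833582, plus strand, 90 to 74 bases before a start, inside an annotated CYP26A1 exon, with the repeat on the opposite strand: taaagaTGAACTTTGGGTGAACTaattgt
STRA6, chr15:74504763-74504818, minus strand, upstream of the gene and within CCDC33, with a half-site on each strand: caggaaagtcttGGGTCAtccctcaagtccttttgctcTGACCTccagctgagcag
DHRS3, chr1:12676941-12676986, minus strand, within DHRS3 and before one of its 3 starts: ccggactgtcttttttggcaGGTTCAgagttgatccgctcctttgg
CRABP2, chr1:156675790-156675826, minus strand, outside any annotated gene: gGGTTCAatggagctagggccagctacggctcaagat
RARB and CYP26A1 are the genes here whose printed letters hold a complete DR5, and both were low with SB as well as with TGFβ. RARB was between 3 and 8 in every library, and CYP26A1 was at 0 in all but SB replicate 2, where it was at 13. STRA6, which was higher with TGFβ than with SB, had half-sites in 2 of its 5 windows and no DR1, DR2 or DR5. ALDH1A3 and RARG had no half-site in their windows. Elements outside these windows were not searched.

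The disagreement between the SB libraries was not limited to DHRS3. SB replicate 2 was higher than SB replicate 1 by 5.05-fold for DHRS3, 2.74-fold for CRABP2 and 2.53-fold for STRA6, which are differences of 2.34, 1.45 and 1.34 on the log2 scale. Over all genes tested, 2.08% were higher in replicate 2 by more than 1 on the log2 scale and 0.674% were lower by as much. DHRS3 was rank 24 of the 14395 genes by the size of this gap, CRABP2 rank 137 and STRA6 rank 181. The other 5 tested genes differed by between -0.11 (RDH10) and 0.14 (RXRA). These gaps are a description, because the SB gap of DHRS3 is part of why the genes were chosen.

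Among the other retinoid pathway genes tested, RARRES3 (59 and 115), RBP5 (90 and 171), NRIP1 (4365 and 7836) and RARRES1 (16 and 29) had the widest gaps towards SB replicate 2. AKR1B10 (70 and 38), RDH5 (12 and 8) and FABP5 (2228 and 1601), picked out after their values were seen, were lower in it. The log2 gap of AKR1B10 was -0.864, beside 0.844 for NRIP1. CYP26A1, the retinoic acid hydroxylase that is its best known induced target, was at 0 in SB replicate 1 and 13 in SB replicate 2, and at 0 in all 4 TGFβ libraries. ALDH1A1, another retinaldehyde dehydrogenase, was at 0 and 9 with SB and at 0 elsewhere. It was picked out after its values were seen. Of the 30 other pathway genes tested, 23 were higher in replicate 2 by any amount, where 48.0% of all genes were. Their median gap was 0.14 on the log2 scale, and 0 of the 30 were higher by more than 1. CYP26A1 and ALDH1A1 were below the minimum mean and are not among the 30.

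The SB gap also took in genes from outside the pathway. The 5 genes with the largest gap among those averaging 100 or more were DMBT1 (46 and 1122), IFI27 (40 and 430), IFI44L (47 and 383), SFTPB (1104 and 8273) and CFB (208 and 1329), all higher in replicate 2. SFTPB encodes a surfactant protein of alveolar type II cells, DMBT1 and CFB act in innate defence, and IFI27 and IFI44L are induced by interferon. Over all genes tested, the log2 difference of replicate 2 from replicate 1 had an SD of 0.384 in SB, 0.279 at 3 days and 0.270 at 7 days. Of the cell type markers, CDH1 and CD79A, picked out after their values were seen, were also higher in SB replicate 2 (371 and 635, 26 and 73). EPCAM (10180 and 9106) and PECAM1 (41 and 36) were lower in it, and NKX2-1 (2784 and 2908) was nearly level. The part of these differences in the retinoid values was not tested.

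**Figure D3:**
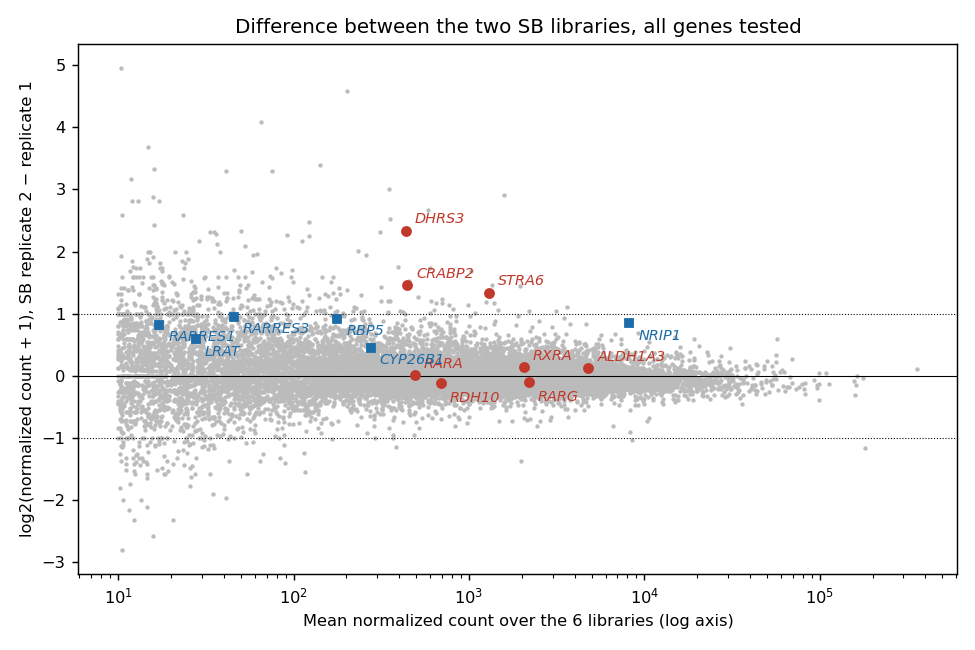
Log2 difference between SB replicate 2 and SB replicate 1 (y axis) against the mean normalized count over 6 libraries (x axis, log scale) for the 14395 genes tested (gray), with retinoid genes as circles and other pathway genes with names as squares; dotted lines mark a difference of 1. DHRS3, CRABP2 and STRA6 stand at 2.34, 1.45 and 1.34, and RARA, RARG, RXRA, ALDH1A3 and RDH10 lie near 0.

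The other genes of the pathway were taken from lists of 54 genes grouped by role, of which 50 had a row and 30 were tested. Against SB, 11 of the 30 passed the threshold after 3 days of TGFβ (5 higher, 6 lower), where 29.0% of all genes tested did, and 17 after 7 days (10 higher, 7 lower), where 54.5% did. Between 7 days and 3 days 9 passed (7 higher, 2 lower), where 33.2% of all genes tested did. These counts were close to those shares. Their median log2 difference was -0.05, 0.06 and 0.23 in these comparisons. The first of these counts came to 7 genes without SB replicate 1 and 5 without TGFβ 3 d replicate 1, and the last to 4 without TGFβ 7 d replicate 2 and 5 without TGFβ 7 d replicate 1.

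Among 3 tested genes for uptake and binding, 1 fell at 3 days, and at 7 days 1 rose and 1 fell against SB. RBP5, a cellular retinol-binding protein, was at 90 and 171, then 193 and 178, then 220 and 210, a log2 difference of 0.79 ± 0.25 at 7 days (limma, adjusted p = 0.0183) that was no longer past the threshold without SB replicate 1 or either 7-day library. SCARB1, a lipoprotein receptor that also takes up carotenoids, fell by 0.32 ± 0.10 at 3 days (adjusted p = 0.0242) and by 1.02 ± 0.10 after 7 (adjusted p = 4.05e-06). Its call at 3 days was lost without either SB library or TGFβ 3 d replicate 1, without the filter on low values and with limma without the trend.

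Among 4 tested storage genes, LRAT, which esterifies retinol, was low with 31 and 47 normalized counts for SB, 22 and 25 at 3 days and 21 and 20 at 7 days. It was lower than SB at 7 days (log2 difference -0.87 ± 0.32, adjusted p = 0.0353), and the call was lost without SB replicate 2 or either 7-day library. Among 3 tested retinol-oxidizing genes, SDR16C5 and DHRS9 passed at both times. SDR16C5, an epidermal retinol dehydrogenase, was at 1499 and 1583 with SB, 556 and 502 at 3 days and 329 and 372 at 7 days. It fell by 1.54 ± 0.12 at 3 days (adjusted p = 1.83e-06) and by 2.14 ± 0.12 after 7 (adjusted p = 5.07e-08). DHRS9, named after its values were seen because its mean was below the minimum for naming, was at 21 and 20, then 8 and 4, then 6 and 3. RDH11, one of 3 tested genes for reducing retinal, was at 4465 and 4732, then 5609 and 5076, then 6240 and 6731, and rose by 0.50 ± 0.09 at 7 days (adjusted p = 0.000537).

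Of the CYP26 enzymes that remove retinoic acid, CYP26B1 was the one with substantial counts. It was at 156 and 214 with SB, 240 and 261 after 3 days of TGFβ and 406 and 375 after 7 days, in groups that did not overlap. The log2 difference from SB was 0.45 ± 0.17 at 3 days (adjusted p = 0.0686) and 1.09 ± 0.17 after 7 (adjusted p = 0.000224). CYP26C1 was at 0 in every library. Of the other retinoid X receptors, RXRB rose by 0.30 ± 0.09 at 3 days (adjusted p = 0.0237) and by 0.56 ± 0.09 after 7 (adjusted p = 0.000261), from 1679 and 1719 to 2536 and 2462. The call of RXRB at 3 days was lost with equal library totals and when any library but SB replicate 2 was left out. It was also lost with limma without the trend, with only the libraries compared and with a replicate block. RXRG was at 1 or less in every library.

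The cofactors that RARs recruit were all expressed, and 4 of 10 rose and 1 fell against SB at 3 days, with 5 and 1 at 7 days, where 29.0% and 54.5% of all genes tested were called. NCOA2, a p160 coactivator, was at 1175 and 1322 with SB, 1770 and 1835 at 3 days and 2414 and 2381 at 7 days, and rose at each step (adjusted p = 0.00146 from SB to 3 days and 0.00748 from 3 to 7 days). NCOA1 and NCOA3 rose against SB at both times, by between 0.31 and 0.74. NCOR1, a corepressor, rose by 0.27 ± 0.09 at 3 days (adjusted p = 0.0344). TBL1X, a subunit of corepressor complexes, fell by 0.69 ± 0.15 at 3 days (adjusted p = 0.00397) and by 0.95 ± 0.15 after 7 (adjusted p = 0.000192). EP300, an acetyltransferase, rose at 7 days by 0.24 ± 0.09 (adjusted p = 0.0321). NRIP1, a corepressor that retinoic acid induces, was at 4365 and 7836 with SB, 6342 and 5466 at 3 days and 12052 and 13022 at 7 days. It rose by 1.10 ± 0.20 from SB to 7 days (adjusted p = 0.000582). At 3 days the calls of NCOA1 and NCOR1 were lost with equal library totals, with only the 4 libraries compared and with limma without the trend. They were also lost with a replicate block and when any library but SB replicate 2 was left out. Without the filter on low values, the 3-day calls of NCOR1 and TBL1X were lost. The 3-day call of NCOA3 was lost with limma without the trend and without SB replicate 1 or TGFβ 3 d replicate 1. That of EP300 was lost with equal library totals, without SB replicate 1 and without either 7-day library, and that of NCOA2 between 3 and 7 days without TGFβ 3 d replicate 1 or either 7-day library.

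**Figure D4:**
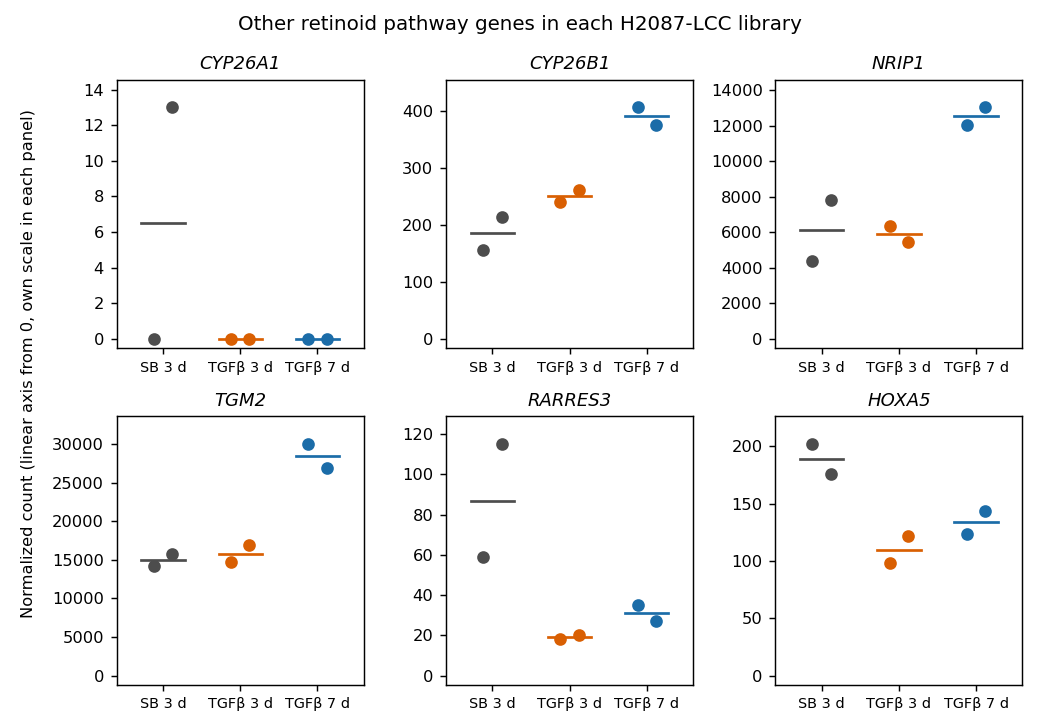
Normalized counts of 6 other retinoid pathway genes (y axis, linear from 0, own scale in each panel) in the 2 libraries of each group (points), with the group mean as a line. NRIP1 and TGM2 are set apart at 7 days, RARRES3 and HOXA5 are highest in the SB libraries and CYP26A1 is above 0 in SB replicate 2 alone.

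The 12 listed genes that retinoic acid is known to induce did not move as 1 block. Of the 7 tested, 2 passed the threshold against SB at 3 days, both lower, 3 rose and 3 fell against SB at 7 days, and 3 rose from 3 days to 7 days. Of all genes tested, 29.0%, 54.5% and 33.2% were called in these comparisons. The 3 were CYP26B1, NRIP1 and TGM2. TGM2, a transglutaminase, was at 14253 and 15716 with SB, 14703 and 16861 at 3 days and 29969 and 26925 at 7 days. It rose by 0.92 ± 0.09 from SB to 7 days (adjusted p = 8.31e-06), while its 3-day libraries overlapped those of SB. RARRES3, a phospholipase of the retinoic acid receptor responder group, was at 59 and 115, then 18 and 20, then 35 and 27. It fell by 2.06 ± 0.34 at 3 days (adjusted p = 0.000664), and after 7 days its log2 difference from SB was -1.39 ± 0.34 (adjusted p = 0.00404). HOXA5, a homeobox factor, fell from 202 and 176 to 98 and 122 at 3 days (adjusted p = 0.00898) and stood at 124 and 144 after 7 (adjusted p = 0.0438). The call of HOXA5 was lost at 3 days without TGFβ 3 d replicate 1 and at 7 days without SB replicate 1 or either 7-day library. RARRES1 had values of 5 to 29, with no call in any comparison. RARRES2 was between 3 and 14, and HOXB1 and STRA8 were at 1 or less.

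**Figure D5:**
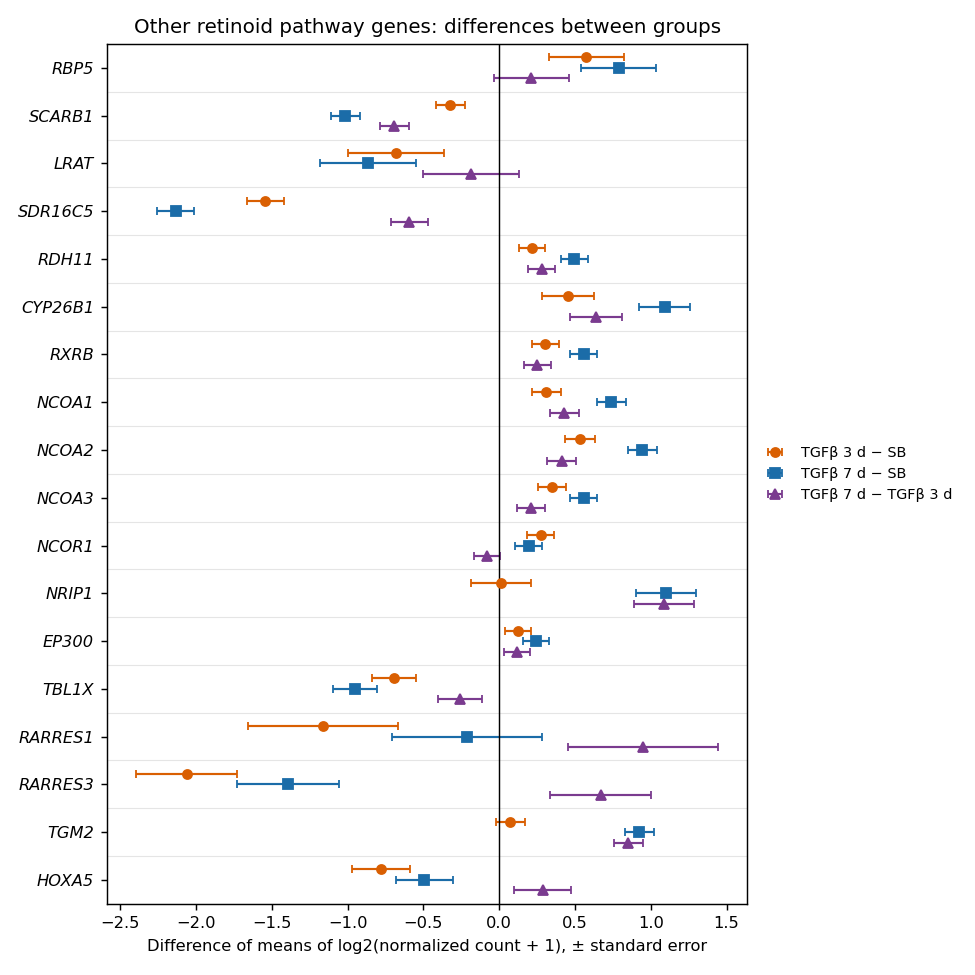
Differences between group means of log2(normalized count + 1) for 18 other retinoid pathway genes (x axis), with bars for the standard error of the fit over 6 libraries; circles are TGFβ 3 d against SB, squares TGFβ 7 d against SB and triangles TGFβ 7 d against TGFβ 3 d. Against SB at 7 days, NRIP1 stands at 1.10 and CYP26B1 at 1.09, and SDR16C5 lies farthest to the left at -2.14.

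The 6 values of DHRS3, low at 3 days, high at 7 days and split in SB, were shared by a set of other genes. By Pearson's r of log2(normalized count + 1) over the 6 libraries among 11388 other genes averaging 100 or more, the most similar were SALL2 (0.996), SMARCC2 (0.996), CNPY3 (0.996), CA11 (0.995) and PTGFRN (0.994). SALL2, a zinc finger factor, was at 183 and 352 with SB, 117 and 124 at 3 days and 359 and 327 at 7 days, and CA11 was at 380 and 644, then 229 and 242, then 579 and 518. Their span between the lowest and highest library was far smaller, at 1.61 and 1.49 on the log2 scale beside 4.47 for DHRS3. The spans of SMARCC2, CNPY3 and PTGFRN were smaller still, at 0.45, 0.49 and 0.50. The most similar to CRABP2 were RAVER2 (0.996), LRP5L (0.994), NMNAT2 (0.994), FUCA1 (0.993) and PTPRH (0.993). PTPRH, a receptor phosphatase, was at 312 and 565, then 115 and 117, then 287 and 242, with a span of 2.29 beside 3.93 for CRABP2. The spans of the other matches of CRABP2 ran from 0.39 (RAVER2) to 1.49 (NMNAT2). With 6 libraries in 3 groups, such values of r describe a shared order of the groups and of the SB libraries, and no p is given.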

How the data were processed

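Poly(A) RNA libraries (TruSeq v2) of H2087-LCC cells were analyzed as 3 groups of 2, grouped by the treatment given in the labels. The authors mapped reads to hg19 with STAR, counted them on genes with HTSeq (0.6.1p1 per the submitters' processing notes) and scaled the counts to library size. The table the authors deposited, entered under score as its unit, gives those normalized counts rounded to whole numbers, for 21293 genes. Of these, 1316 were at 0 in every library, and 27 gene names had been turned into dates. Because the values are not read counts, the count model the study used was replaced by limma 3.58.1 (R 4.3.3) on log2(value + 1), so that fold changes of low genes are understated. The 14395 genes averaging 10 or more were fitted over 6 libraries with group as the only term (3 residual degrees of freedom, moderated two-sided test with a trend, Benjamini-Hochberg at 0.05 over all genes tested, for each of 3 comparisons). An exact permutation test of 2 against 2 libraries cannot go below p = 0.333.

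The 9 genes, the pathway lists and the tests were chosen with earlier results of these data known. Pathway genes were named when past the threshold in a comparison with a mean of at least 50, or when listed under catabolism, receptors or retinoic acid targets. The 5 genes most like DHRS3 and CRABP2 and the 5 with the widest SB gap were named among those averaging 100 or more. RBP4, ADH1B, ADH7 and CDX1 had no row under those symbols. A further 3 genes were taken off the lists and out of every count and are not reported here. Listed genes that the rule did not name enter only the counts, except where they are said to be picked out or named after their values were seen. Gene coordinates and merged exon lengths came from GENCODE on GRCh37. Other scalings, filters, pseudocounts, a replicate block and leaving out each library were tried. The steps were tested on simulated data with the same spread in all groups and no gap between the SB libraries. That test does not cover a gap such as the one seen here. Numbers of reads cover counting error only. Figures were drawn with matplotlib 3.10.9.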

Additional observations from a re-analysis of the deposited data

Results flagged for a closer look

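In 9 other pathway genes the level differed between 7 days and 3 days of TGFβ, by the direct limma test of these groups. The means of this test hold no SB library, and its spread is pooled over all 6 libraries. With no SB group at 7 days, these differences cannot be told apart from time in culture. NRIP1 had the widest log2 difference at 1.09 (adjusted p = 0.00187), followed by TGM2 at 0.85 (adjusted p = 8.91e-05). CYP26B1 stood at 0.64 (adjusted p = 0.0146), NCOA1 at 0.43 (adjusted p = 0.0055) and NCOA2 at 0.41 (adjusted p = 0.00748). RDH11 at 0.28 (adjusted p = 0.0294) and RXRB at 0.25 (adjusted p = 0.0481) were closest to the threshold. SCARB1 at -0.69 (adjusted p = 0.000364) and SDR16C5 at -0.59 (adjusted p = 0.00336) fell further from 3 days to 7 days. Leaving out single libraries ended the calls of CYP26B1, NCOA2 and RXRB (either 7-day library or TGFβ 3 d replicate 1), of RDH11 and RXRB (either 7-day library or TGFβ 3 d replicate 2) and of NCOA1 (TGFβ 7 d replicate 2). Without the filter on low values, NRIP1, CYP26B1, RDH11 and RXRB were no longer past the threshold. In all 9 genes both libraries of one time lay on the same side of both libraries of the other, which held for 69.1% of all genes tested.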

How the results depend on the processing

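Of the results on counts, 89 alternatives stayed within 1.5 times the value reported and 7 did not. For the other pathway genes at 3 days against SB (11), limma without the trend gave 6, and leaving out each library gave 5 to 12. At 7 days against 3 days (9), no filter gave 5 and leaving out each library gave 4 to 12. For the 9 retinoid genes at 7 days against 3 days (4), no filter gave 2. NRIP1 at 3 days against SB, 0.01 as reported, ranged from -0.41 without SB replicate 1 to 0.43 without SB replicate 2, with both past the threshold. With equal library totals, calls over all genes at 3 days against SB turned from 2149 higher and 2021 lower to 1819 and 2552. For the named other pathway genes taken singly, 81 values lost the call and 10 gained it. The retinoid genes are not in these numbers, nor is the value of NRIP1 without SB replicate 1, where its direction turned. The replicate numbers were not shown to pair the samples: same-numbered libraries deviated together with r = 0.14 for SB and 3 days, -0.10 for SB and 7 days and -0.29 for 3 days and 7 days over 14395 genes. A pairing under other numbers was not tested. The replicate block gave 9, 15 and 9 other pathway genes in the 3 comparisons, and 4, 6 and 4 of the retinoid genes. The cause of these shifts was not tested. Genes such as RARB and CYP26A1, at 13 normalized counts or less, are limited by depth.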
